A study of Mus musculus with 8 samples.

Results

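The mitochondrial genome of the mouse encodes 37 genes, and all 37 were listed in a gene expression table of 31607 genes from lung mesenchymal cells. They were taken as every gene whose symbol begins with mt-, and they comprise 13 messenger RNAs, 2 ribosomal RNAs and 22 transfer RNAs. Bulk RNA sequencing had been done on 4 HhipCKO and 4 Control libraries from adult mice, all injected with tamoxifen. HhipCKO mice carried Hhipflox/flox with inducible Cre alleles, Myh11creER among them, whereas Control mice carried Hhipflox/flox and no Cre. Effects of Hhip loss and of the Cre alleles themselves can therefore not be told apart. Myh11 is a smooth muscle myosin gene, and the Cre alleles together were not confined to smooth muscle. Cells negative for CD45, CD31 and Epcam, which mark leukocytes, endothelium and epithelium, were sorted after exclusion of dead cells by DAPI. The labels' protocol for extraction mentions cultured cells, but whether the sorted cells were cultured is not given in the sources used here. Nothing in the labels says that the 4 libraries of a group came from separate animals, so the p-values measure the spread between these libraries, which may be technical.

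Mitochondrial DNA is a small circle present in many copies per cell. Both of its strands are transcribed into long precursors, and the transfer RNAs that lie between the other genes are cut out to release the messenger and ribosomal RNAs. The 13 proteins are subunits of respiratory complexes I, III, IV and V, which also contain subunits encoded in the nucleus. The ribosomal and transfer RNAs serve the mitochondrion's own translation. RNA from these genes is often used as a rough sign of respiratory demand or of cell condition.

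All values come from 1 comparison deposited by the authors, with a mean over the 8 libraries, a fold change and its error for each gene. No value per library was analysed here, so the overlap of the groups cannot be stated, and levels in each group were derived from the mean and the fold change. Hhip itself, which encodes an inhibitor that binds hedgehog ligands, was lower in HhipCKO by the authors' deposited table (-2.62 ± 0.32 SE as log2 fold change, adjusted p = 9.55e-13). Across the table the mean normalized counts, which are counts divided by a size factor per library, summed to 128669692. In bulk libraries fewer cells of a type and less RNA per cell cannot be told apart.

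The 1 member past the threshold, an adjusted p of 0.05, was mt-Ty, the tyrosine transfer RNA gene. It lies at the end of a run of 5 transfer RNA genes between mt-Nd2 and mt-Co1, and the members of this run are shown because all 5 had negative fold changes. Genes are given in the order of the genome on GRCm38, with the sequences of the GENCODE M21 transcripts, and the capitals mark the anticodon, the triplet that reads the codon.
mt-Tw (tryptophan, plus strand, chrM:4950-5016): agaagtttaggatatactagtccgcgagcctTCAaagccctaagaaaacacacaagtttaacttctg
mt-Ta (alanine, minus strand, chrM:5018-5086): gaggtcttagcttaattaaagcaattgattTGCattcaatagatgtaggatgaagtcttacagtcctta
mt-Tn (asparagine, minus strand, chrM:5089-5159): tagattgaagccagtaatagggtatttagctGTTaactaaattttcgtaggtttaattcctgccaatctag
mt-Tc (cysteine, minus strand, chrM:5192-5257): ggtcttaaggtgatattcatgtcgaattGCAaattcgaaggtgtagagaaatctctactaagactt
mt-Ty (tyrosine, minus strand, chrM:5260-5326): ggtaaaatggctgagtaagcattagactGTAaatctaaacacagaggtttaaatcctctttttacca

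Counts assigned to the 37 mitochondrial genes made up 1.84% of all normalized counts. The messenger RNAs held 94.1% of that amount, the ribosomal RNAs 5.57% and the transfer RNAs 0.332%. Derived for each group, the share was 1.78% in Control and 1.90% in HhipCKO. The derived sum over the 37 genes was higher in HhipCKO by 0.037 on the log2 scale, while the derived total over all genes was 131499276 in Control and 125840108 in HhipCKO. Neither share has an error, since the correlation among these genes between libraries was not analysed here. A further 0.534% of all normalized counts was assigned to 7 near-identical nuclear copies, described below. All the shares given here are therefore uncertain as shares of the mitochondrial genome itself.

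The messenger RNAs ranged widely in level per length. The quantity compared here is the mean normalized count per kilobase of annotated transcript. mt-Co1, which encodes the catalytic core of cytochrome c oxidase, was the highest at 469432 per kb, 81.1% above mt-Cytb, the cytochrome b of complex III, at 259245 per kb. With 725273 normalized counts mt-Co1 ranked 6 among all genes of the authors' deposited table. Next came mt-Atp6 at 240823 and mt-Co2 at 206220 per kb, followed by mt-Nd1 at 186874, mt-Co3 at 158298 and mt-Atp8 at 156016 per kb. These encode membrane subunits of ATP synthase (mt-Atp6 and mt-Atp8), of cytochrome c oxidase (mt-Co2 and mt-Co3) and of complex I (mt-Nd1).

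The remaining messenger RNAs all encode complex I subunits. mt-Nd4 and mt-Nd2 stood at 137571 and 133880 per kb, and mt-Nd5 and mt-Nd6 at 88636 and 88136 per kb. mt-Nd4l at 66901 and mt-Nd3 at 20737 per kb were the lowest. The highest level was 22.6 times the lowest. mt-Nd3 and several other messenger RNAs have near-identical nuclear copies, described below, so this range and the order are uncertain. mt-Nd6 is the 1 messenger RNA encoded on the minus strand, and mt-Co1 exceeded it 5.33-fold.

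Several neighbours in this order were closer in level than the spread of the higher gene between libraries. The order itself was not tested, since that spread is not the error of a difference between genes measured in the same libraries. That spread was derived from each standard error under a negative binomial model with 4 libraries a group, as a coefficient of variation between 9.33% for mt-Co1 and 20.5% for mt-Nd3. mt-Co3 was 1.46% above mt-Atp8, mt-Nd4 2.76% above mt-Nd2 and mt-Nd5 0.567% above mt-Nd6, all far less than the coefficients of 12.2%, 13.9% and 13.2% of the higher gene. mt-Cytb was 7.65% above mt-Atp6, against a coefficient of 13.3%, and mt-Co2 was 10.4% above mt-Nd1, against 11.8%. The ribosomal RNAs lay among the lowest messenger RNAs. mt-Rnr2, the large ribosomal RNA, stood at 65881 per kb, and mt-Nd4l was 1.55% above it. mt-Rnr1, the small ribosomal RNA, stood at 28787 per kb, above mt-Nd3 alone. mt-Co1 was 7.13-fold above mt-Rnr2. Whether poly(A) selection or removal of ribosomal RNA was used is not given in the sources used here.

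Transfer RNA genes, 59 to 75 bases long, had the lowest levels, except that mt-Te exceeded mt-Rnr1 and mt-Nd3. Their normalized counts per kb ran from 117 for mt-Tf to 38957 for mt-Te, the glutamate transfer RNA beside mt-Nd6. mt-Tl1, which encodes a leucine transfer RNA and lies directly after mt-Rnr2, followed at 18860 per kb. The third was mt-Tc at 10121 per kb. How reads that cover both a transfer RNA and its neighbour were counted is not given in the sources used here, nor are the read length and the strand setting. Reads from the precursors, from mature transfer RNAs and from the opposite strand cannot be told apart. The plot of levels per length shows how the classes alternate along the genome.

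**Figure D1:**
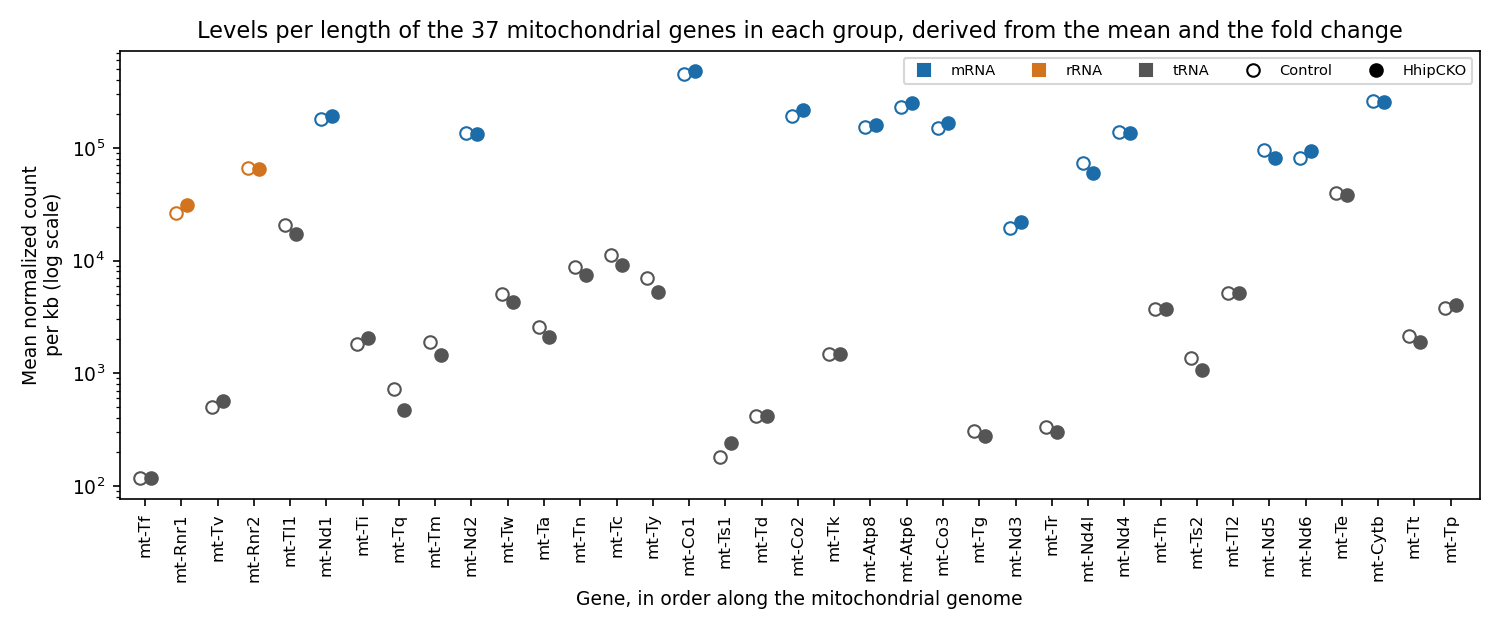
Mean normalized count per kilobase (log scale) of the 37 mitochondrial genes in the order of the genome, with open points for Control and filled points for HhipCKO, both derived from the deposited mean and fold change. Over both groups together the messenger RNAs (blue) lie between 20737 and 469432 per kb and the transfer RNAs (grey) between 117 and 38957, and the levels differ far more between genes than between groups.

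Few of the mitochondrial genes differed between the groups. Of 37 members, 30 carried an adjusted p by the authors' deposited table, and 1 fell, none rose and 29 did not pass at 0.05. Among all 17469 genes tested, 6.98% passed, 3.92% lower and 3.06% higher, so 1 of 30 members, or 3.33%, is no more than the background. At an unadjusted p of 0.05, 2 of 36 members with a p passed, mt-Ty and mt-Tc, against 13.5% of 31457 genes. The median log2 fold change of the 30 members was -0.01, beside 0.02 over all genes tested. The test is the authors' Wald test with Benjamini-Hochberg adjustment by DESeq, named in the submitters' processing notes.

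**Figure D2:**
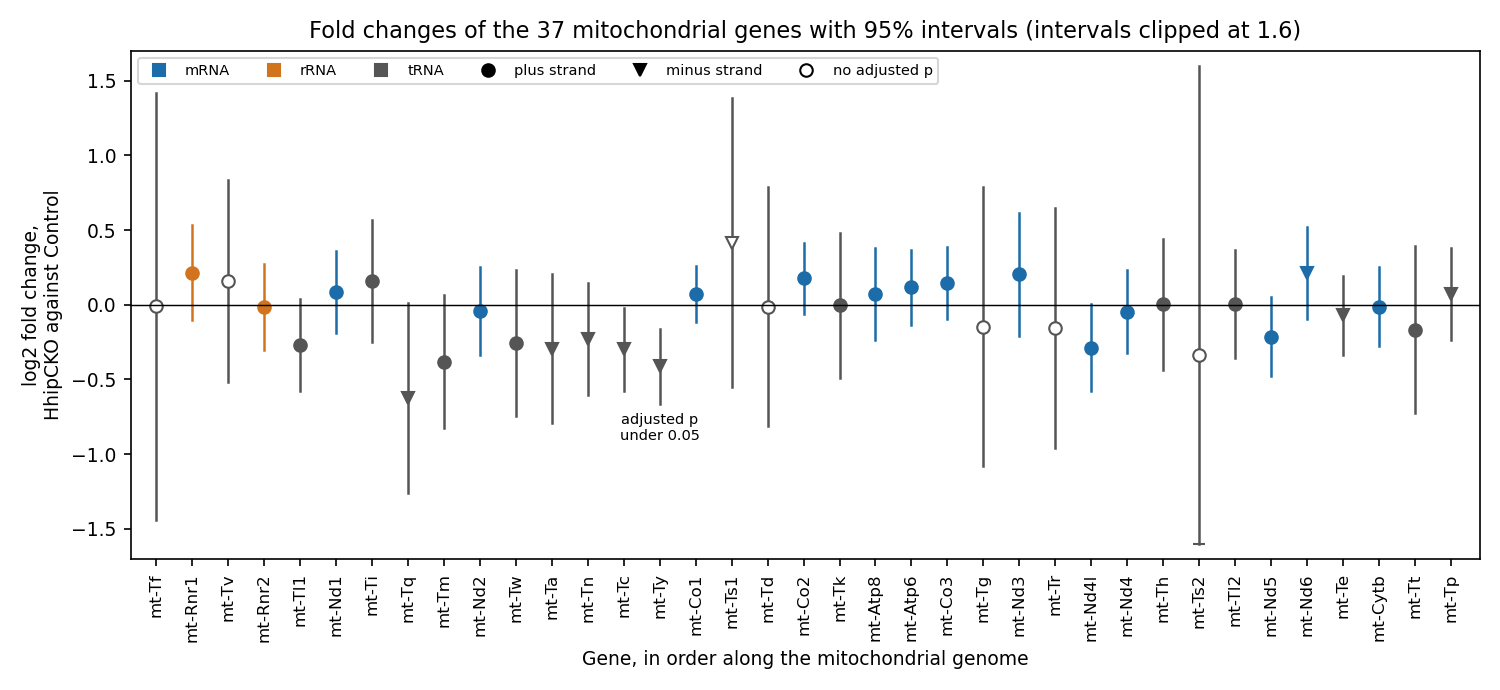
HhipCKO against Control as log2 fold change for the 37 mitochondrial genes in the order of the genome, with 95% intervals from the deposited standard errors. Open symbols have no adjusted p, triangles mark the minus strand, and the interval of mt-Ts2 is clipped. mt-Ty at -0.41 is the 1 gene past the threshold, and all 13 messenger RNA intervals (blue) include 0.

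None of the 13 messenger RNAs passed the threshold. Their log2 fold changes lay between -0.29 and 0.21 by the authors' deposited table, 8 positive and 5 negative, with a median of 0.07. Their adjusted p ran from 0.234 for mt-Nd4l to 0.973 for mt-Cytb. The deposited errors bound the differences between these libraries, which may not be those between animals. They were not scaled by the robust SD of all Wald statistics, 1.53, which would widen the intervals given here. For 12 of the 13 the 95% interval stayed within 1.5-fold in either direction, and the exception was mt-Nd3, with an upper limit of 1.53-fold. The lowest limit belonged to mt-Nd4l, 1.49-fold below Control.

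Complex I is the entry point of electrons from NADH, and its 7 mitochondrial subunits pointed both ways. By the authors' deposited table mt-Nd4l and mt-Nd5 had the most negative log2 fold changes, -0.29 ± 0.15 and -0.21 ± 0.14 (SE). mt-Nd4 and mt-Nd2 were at -0.05 ± 0.14 and -0.04 ± 0.15 (SE) by the authors' deposited table. mt-Nd1 stood at 0.09 ± 0.14, mt-Nd3 at 0.20 ± 0.21 and mt-Nd6 at 0.21 ± 0.16 (SE) by the authors' deposited table. The derived level of mt-Nd4l was 21836 normalized counts in Control and 17903 in HhipCKO, and that of mt-Nd6 42376 and 49109. Neither direction was larger than the spread between libraries by the test used.

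Complex IV, which passes electrons to oxygen, had positive values for its 3 mitochondrial subunits, none past the threshold, and all 3 were slightly negative once the trend with transcript length was removed (-0.06, -0.0038 and -0.03 for mt-Co1, mt-Co2 and mt-Co3). The log2 fold changes by the authors' deposited table were 0.07 ± 0.10 for mt-Co1, 0.18 ± 0.12 for mt-Co2 and 0.15 ± 0.12 for mt-Co3 (SE). Derived levels of mt-Co2 were 132477 normalized counts in Control and 149631 in HhipCKO. The interval for mt-Co1 was the narrowest of the messenger RNAs, from 0.923-fold to 1.19-fold. The ATP synthase subunits mt-Atp6 and mt-Atp8 stood at 0.12 ± 0.13 and 0.07 ± 0.16 (SE) by the authors' deposited table. mt-Cytb of complex III was the messenger RNA closest to 0, at -0.01 ± 0.14 (SE) by the authors' deposited table, with derived levels of 297837 in Control and 295316 in HhipCKO. The ribosomal RNAs mt-Rnr1 and mt-Rnr2 had values of 0.22 ± 0.16 and -0.01 ± 0.15 (SE) by the authors' deposited table, and neither passed (adjusted p = 0.473 and 0.974). Those genes lie side by side in the same precursor, with mt-Tv, the valine transfer RNA gene, between them.

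mt-Ty fell in HhipCKO. Its log2 fold change was -0.41 ± 0.13 (SE) by the authors' deposited table, with an adjusted p of 0.0261. This is a 1.33-fold lower level, and its 95% interval runs from 1.12-fold to 1.58-fold. Its mean normalized count of 412 corresponds to a derived 470 in Control and 353 in HhipCKO, and the derived coefficient of variation between libraries was 11.5%. Recomputed from the authors' deposited table, the call was lost when the robust SD of all Wald statistics was used to scale them (adjusted p = 0.731 by the Wald test) and against a minimum change of 1.5-fold, and mt-Ty was not tested at a mean of at least 500. The 57 bases of mt-Ty from position 8 to 64 match a retained intron transcript of Cep295 with 89.5% identity. Cep295 stood at -0.19 ± 0.16 on the log2 scale (SE, adjusted p = 0.534) by the authors' deposited table, and whether any read was shared was not tested.

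The other 4 genes of the run shown above had negative values without passing the threshold. By the authors' deposited table, values on the log2 scale were -0.30 ± 0.14 for mt-Tc, -0.23 ± 0.19 for mt-Tn, -0.29 ± 0.25 for mt-Ta and -0.26 ± 0.25 for mt-Tw (SE). Derived levels were 737 normalized counts in Control and 599 in HhipCKO for mt-Tc, and 626 and 533 for mt-Tn. The run was singled out after its values were seen, so its shared direction was given no test. mt-Nd2 and mt-Co1 on either side of it stood at -0.04 and 0.07. mt-Tw is encoded on the opposite strand from the other 4 genes. Whether the 5 values vary together between libraries was not tested.

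Over the 15 transfer RNA genes with an adjusted p, 11 values were negative and 4 positive, with a median of -0.23, and the median was -0.04 over the 10 outside the run. The lowest value was that of mt-Tq, the glutamine transfer RNA, at -0.62 ± 0.33 (SE, adjusted p = 0.244) by the authors' deposited table. Its mean normalized count of 42.3 lay just above 42.1, the lowest mean with an adjusted p. mt-Tm, the methionine transfer RNA, and mt-Tl1 stood at -0.38 ± 0.23 and -0.27 ± 0.16 (SE) by the authors' deposited table. mt-Tt, the threonine transfer RNA, was at -0.17 ± 0.29 (SE) there.

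Other tested transfer RNA genes lay near 0. By the authors' deposited table mt-Te was at -0.07 ± 0.14, mt-Tk (lysine) at -0.00 ± 0.25, mt-Th (histidine) at 0.00 ± 0.22 and mt-Tl2 (leucine) at 0.00 ± 0.19 (SE). mt-Tp (proline) and mt-Ti (isoleucine) stood at 0.07 ± 0.16 and 0.16 ± 0.21 (SE) by the authors' deposited table. By strand, the median was -0.29 over 7 genes of the minus strand and -0.09 over 8 of the plus strand. The 7 include mt-Ta, mt-Tn, mt-Tc and mt-Ty of the run singled out above, so this is no separate observation. The others of the 7 were mt-Tq at -0.62, mt-Te at -0.07 and mt-Tp at 0.07. The minus strand genes mt-Nd6 and mt-Te lie next to each other beyond mt-Nd5, with mt-Tp at the end of the gene order, and none of these 3 passed.

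The 7 members without an adjusted p were all transfer RNA genes. For mt-Tf, mt-Tv, mt-Ts1, mt-Td, mt-Tg and mt-Tr the mean normalized count was between 7.96 and 36.8 by the authors' deposited table, below the limit of the authors' filter. Their log2 fold changes ran from -0.16 ± 0.41 for mt-Tr to 0.42 ± 0.49 (SE) for mt-Ts1 by the authors' deposited table, and differences of the size seen for mt-Ty were not detectable at this depth. mt-Ts2, a serine transfer RNA gene of 59 bases, had a mean of 71.8 but no p. Its log2 fold change by the authors' deposited table was -0.33 ± 2.08 (SE), by far the widest error of the 37 genes.

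**Figure D3:**
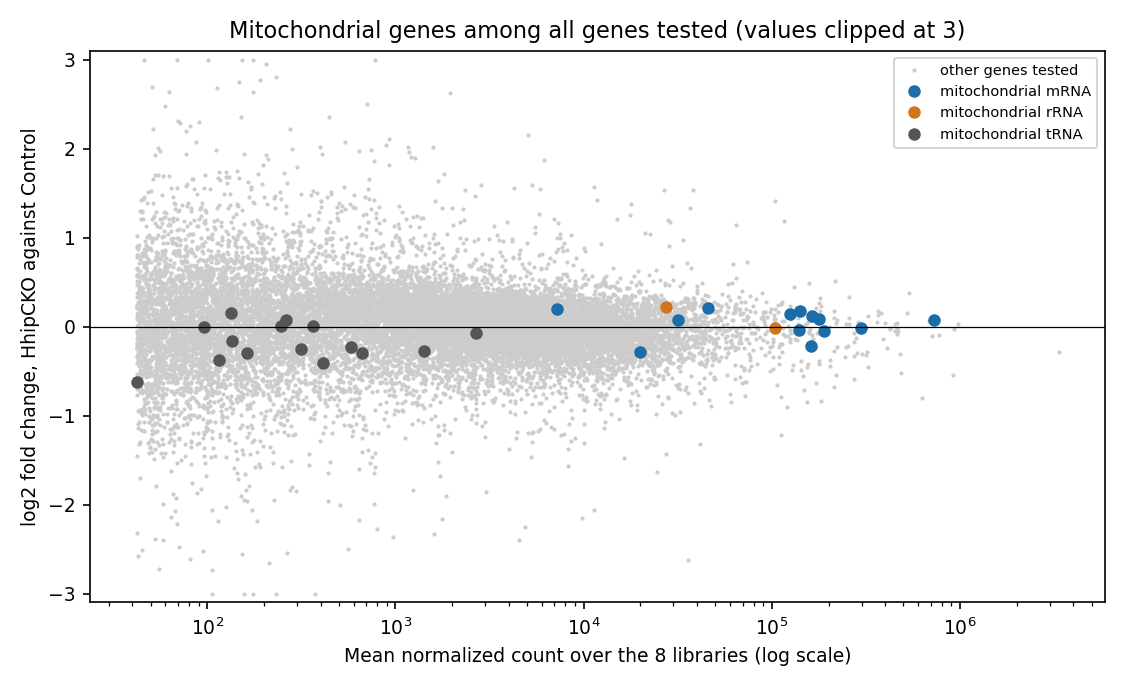
log2 fold change against the mean normalized count (log scale) for the genes with an adjusted p, with the mitochondrial messenger RNAs in blue, ribosomal RNAs in orange transfer RNAs in dark grey and values clipped at 3. The messenger and ribosomal RNAs lie at the abundant end within -0.29 and 0.22, and the transfer RNAs at means up to 2688.

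Copies of mitochondrial sequence in the nuclear genome bear on these values, since reads that match both places cannot be assigned to either. All 37 genes were compared with every other GENCODE M21 transcript. The table held 7 annotated pseudogenes with at least 99% identity over at least 100 bases, all on the minus strand of chromosome 1 between 24611535 and 24616197 on GRCm38. They match mt-Co1, mt-Co2, mt-Atp6, mt-Co3, mt-Nd3, mt-Nd4l and mt-Nd4, and they lie along their strand in the order of the mitochondrial genome. Gm29216 differs from the last part of mt-Co1 by the single substitution A1066T over 483 bases, counted from the first base of mt-Co1, with the mitochondrial base first. The windows around it show how little separates gene and copy, and the capital marks the differing base.
mt-Co1 (plus strand, chrM:6390-6413): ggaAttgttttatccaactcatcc
Gm29216 (minus strand, chr1:24616165-24616188): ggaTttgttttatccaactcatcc

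Where a copy covers a whole messenger RNA to within 3 bases, copy and gene had nearly equal values. This was so for 5 copies, whose means were 102% to 118% of the mean of their mitochondrial gene, and whose log2 fold changes differed from it by at most 0.03. Gm10222 had a mean normalized count of 20578 and a log2 fold change of -0.30 ± 0.15 (SE) by the authors' deposited table, beside 19870 and -0.29 ± 0.15 for mt-Nd4l. Gm28661 stood at 143502 and 0.17 ± 0.12 (SE) by the authors' deposited table, beside 141054 and 0.18 ± 0.12 for mt-Co2. Gm10925, the copy of mt-Atp6 and the most abundant of all, had a mean of 178086 and a log2 fold change of 0.11 ± 0.13 (SE) by the authors' deposited table. The levels and differences of these members are therefore uncertain as values of the mitochondrial genes alone. The treatment of reads that map to several places is not given in the sources used here.

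The 2 copies of part of a gene departed more from it. Gm29216, which covers mt-Co1 from base 1063 to its end at 1545, stood at 0.21 ± 0.09 on the log2 scale (SE, adjusted p = 0.108) by the authors' deposited table, where the whole of mt-Co1 had 0.07 ± 0.10. Gm28439, which covers the first 876 bases of mt-Nd4, had -0.14 ± 0.14 (SE) by the authors' deposited table, beside -0.05 ± 0.14 for mt-Nd4. None of the 7 copies passed the threshold. The 7 together made up 0.534% of all normalized counts. The other 8 copies in the table had lower identity and far lower means than the members they match. The most abundant of them was Gm13341 on chromosome 2, with 95.9% identity to mt-Co2 and a mean of 2823 normalized counts by the authors' deposited table, beside 141054 for mt-Co2. Among annotated transcripts no near-identical copy was found for mt-Nd1, mt-Nd2, mt-Nd5, mt-Nd6, mt-Cytb and mt-Atp8. However, 43 bases of mt-Atp8 overlap mt-Atp6 and so lie within Gm10925. Nuclear sequence outside annotated transcripts was not searched, so copies without annotation, such as between the 7 on chromosome 1, would be missed.

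**Figure D4:**
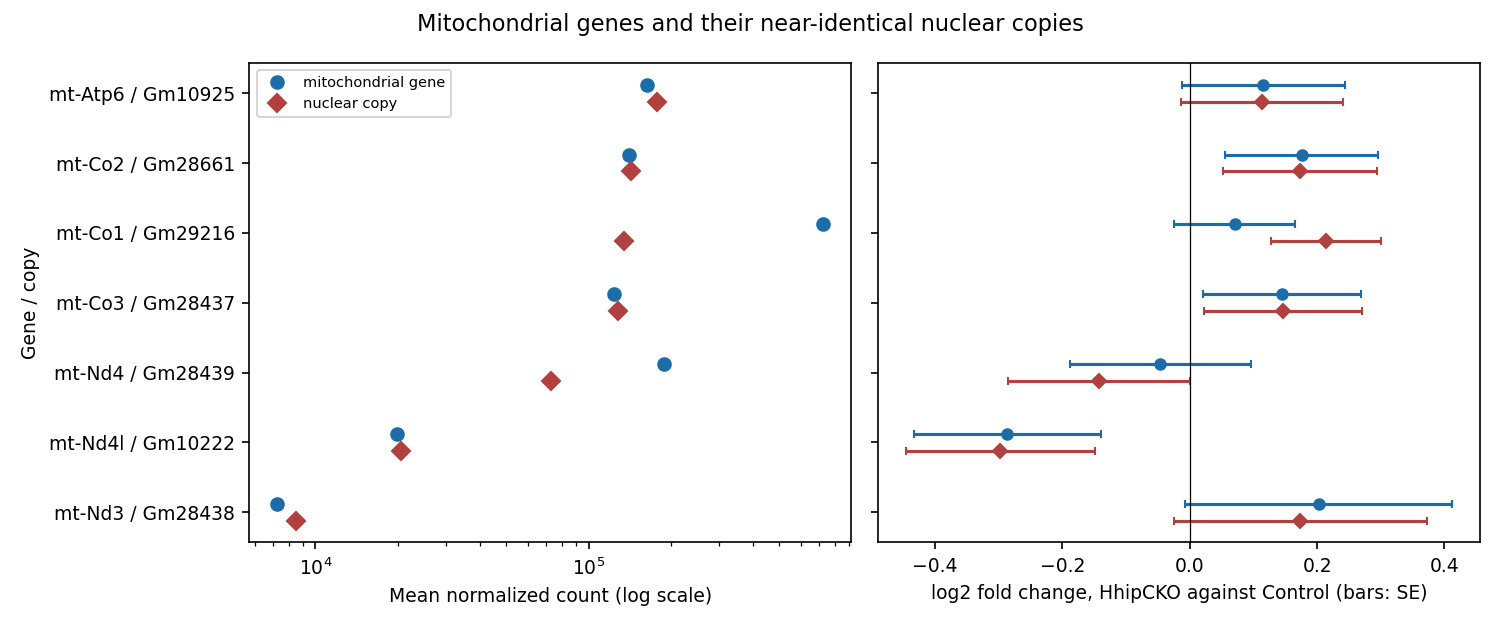
Mean normalized count (left, log scale) and log2 fold change between HhipCKO and Control with its SE (right) for 7 mitochondrial genes (blue circles) and their near-identical copies on chromosome 1 (red diamonds). The 5 whole copies lie close to their genes in both panels, and Gm29216 and Gm28439, which cover parts of mt-Co1 and mt-Nd4, lie below them in mean.

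Some members overlap each other, and how reads in the overlaps were counted is not given in the sources used here. mt-Atp8 and mt-Atp6 have 43 bases in common on the same strand, shown here because they make up a large part of the 204 bases of mt-Atp8.
Overlap (plus strand, chrM:7927-7969): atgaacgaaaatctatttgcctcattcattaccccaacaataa
mt-Nd4l and mt-Nd4 overlap by 7 bases, and mt-Nd5 and mt-Nd6 by 14 bases on opposite strands. Without a known strand setting, reads from mt-Nd6 and from the opposite strand cannot be told apart.

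Nuclear genes for the same respiratory complexes were set beside the mitochondrial ones. Of 79 nuclear subunit genes of complexes I to V, all tested, 21 rose, none fell and 58 did not pass. The 21 are 26.6% of the 79, beside 3.06% of all genes called higher, and 77 values were positive with a median of 0.25. For the 13 mitochondrial messenger RNAs the median was 0.07 with none past the threshold, and the difference between the gene groups was not tested. In complex I, 15 of 36 nuclear genes rose, or 41.7%, and the nuclear median was 0.30 beside -0.04 for the 7 mitochondrial genes. Ndufc2 was among the 15, with a log2 fold change by the authors' deposited table of 0.45 ± 0.10 (SE, adjusted p = 0.000959). Ndufa4, which did not pass, was in the lists of both complex I and complex IV and was counted once among the 79. Single genes rose in complex III (11.1% of its list) and in complex IV (7.14%). By the authors' deposited table Uqcrfs1, the Rieske iron-sulfur protein, stood at 0.34 ± 0.11 (SE). Cox7c, a small subunit of cytochrome c oxidase, stood at 0.34 ± 0.09 (SE) there. Atp5g2, which encodes the membrane ring subunit of ATP synthase, rose by 0.36 ± 0.08 (SE, log2) there. It was 1 of 4 called genes in complex V (23.5% of its list). In complex IV the medians were 0.21 over 14 nuclear genes and 0.15 over 3 mitochondrial ones, and in complex V 0.21 over 17 and 0.09 over 2. Fold changes varied with transcript length in the whole table. Once that trend was removed, 2 of the 79 nuclear genes passed as higher, beside 231 called higher of all 17439 genes then tested. None of the 4 called genes named here was among the 2. The nuclear median was then 0.12, beside -0.08 for the mitochondrial messenger RNAs.

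**Figure D5:**
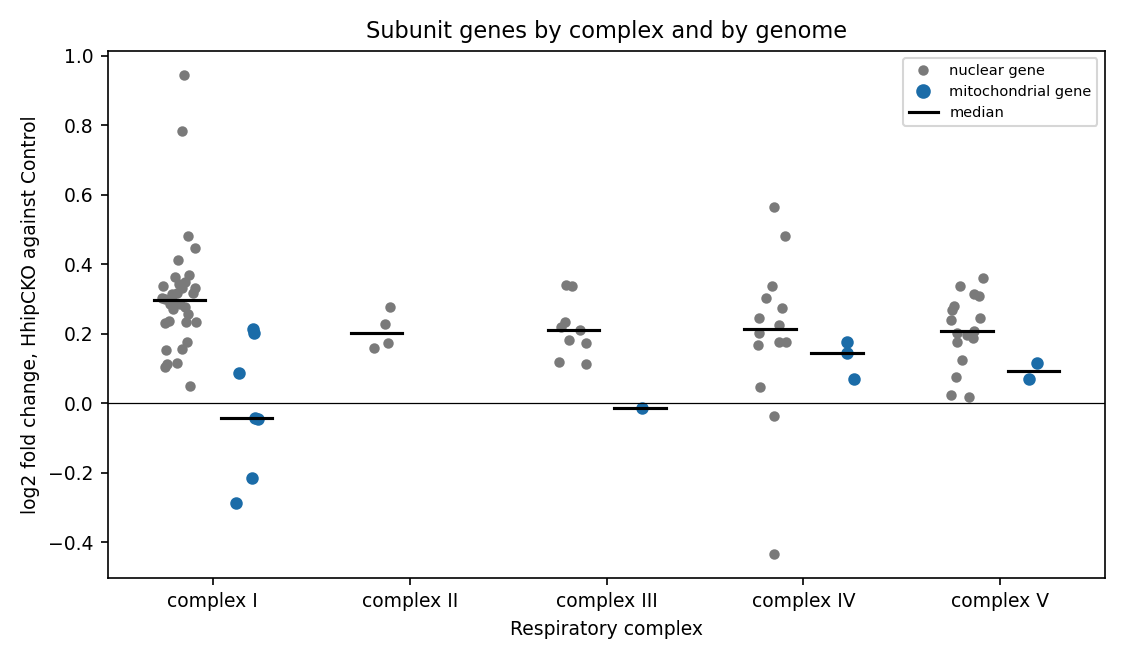
log2 fold change of HhipCKO against Control for subunit genes of respiratory complexes I to V, in grey for nuclear and in blue for mitochondrial genes, with black bars for medians. In complex I the nuclear median is 0.30 and the mitochondrial one -0.04, and complex II has no mitochondrial gene.

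Of 16 genes listed for transcription and replication of mitochondrial DNA, 2 rose and none fell, with a median of 0.18. The 2 are 12.5% of the list, beside 3.06% of all genes called higher. Mterf4, whose product takes part in assembly of the mitochondrial ribosome, rose by 1.12 ± 0.24 and Polg2, the accessory subunit of the mitochondrial DNA polymerase, by 0.43 ± 0.14 (SE) on the log2 scale by the authors' deposited table. Recomputed from the authors' deposited table, Polg2 did not pass after median centring (adjusted p = 0.0570), after the filter on low means was dropped (0.0755) or after removal of the length trend (0.141). Polg, the catalytic subunit, and Tfam, which packages mitochondrial DNA and starts its transcription, stood at -0.24 ± 0.12 and 0.14 ± 0.10 (SE) by the authors' deposited table, and neither passed.

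Among 35 genes for cleavage, modification, stability and decay of mitochondrial RNA, Nsun3, which methylates the mitochondrial methionine transfer RNA, was the 1 that rose (2.86%, beside 3.06% of all genes called higher) and none fell. Its log2 fold change was 0.58 ± 0.19 (SE, adjusted p = 0.0369) by the authors' deposited table, and it did not pass when the filter on low means was dropped (0.0628) or after removal of the length trend (0.0563). The exonuclease gene Rexo2 and the RNA granule gene Grsf1 stood at 0.03 ± 0.13 and 0.15 ± 0.12 (SE) by the authors' deposited table. None of 33 genes for mitochondrial aminoacyl-tRNA synthetases and translation factors passed. Iars2, the isoleucyl-tRNA synthetase, stood at 0.19 ± 0.09 (SE, adjusted p = 0.172) by the authors' deposited table. It passed after removal of the length trend, at 0.30 (adjusted p = 0.0343, recomputed from the authors' deposited table).

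Of 78 mitochondrial ribosomal protein genes, 11 rose, none fell and 67 did not pass, with a median of 0.21 and 69 positive values. The 11 are 14.1% of the list, beside 3.06% of all genes called higher. Mrpl55 and Mrps14, of the large and small subunit, rose by 0.40 ± 0.10 and 0.31 ± 0.09 (SE) on the log2 scale by the authors' deposited table. Once the length trend was taken out 7 of the 78 passed, all higher, beside 231 called higher of all 17439 genes then tested. Of the 7, 6 were among the 11 and 1, Mrpl17, was not. Mrpl55 did not pass then (adjusted p = 0.180, recomputed from the authors' deposited table). Of 9 regulators of mitochondrial biogenesis, 1 fell (11.1%, beside 3.92% of all genes called lower) and none rose. This was the coactivator gene Pprc1, with a log2 fold change by the authors' deposited table of -1.20 ± 0.26 (SE, adjusted p = 0.000424). After removal of the length trend Yy1, a transcription factor gene of the same list, passed as higher, at 0.34 (adjusted p = 0.0173, recomputed from the authors' deposited table). No gene of the lists for fusion, fission and mitophagy (16 tested) and for mitochondrial chaperones and stress (18 tested) passed. None of the calls in these lists passed with the Wald statistics scaled by the robust SD over all genes.

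Markers of other cell types were present, those of the gated-out leukocytes, endothelium and epithelium included, and none passed as deposited. Heart and skeletal muscle cells are rich in mitochondria, and all 10 of their markers were listed above a mean of 10. Their derived sum was 46300 in Control and 40567 in HhipCKO, most of it from Actc1, a cardiac actin that smooth muscle can also express. Of the 10 log2 fold changes 4 were positive and 6 negative, from -1.13 to 0.74 with a median of -0.07. After removal of the length trend the skeletal muscle troponin gene Tnnt3 passed as lower, at -0.88 (adjusted p = 0.0255, recomputed from the authors' deposited table). Derived sums were 26748 in Control and 63017 in HhipCKO for 10 leukocyte markers, 132355 and 238877 for 9 epithelial ones, 14687 and 13368 for 7 endothelial ones, and 37414 and 16013 for 5 erythroid ones. Single genes carried much of the first sums. By the authors' deposited table Lyz2 of the leukocyte list had a mean of 37908 and Sftpc of the epithelial list 103822. The median derived coefficient of variation between libraries was 88.6% over the leukocyte markers tested and 44.5% over the epithelial ones. For the endothelial and erythroid markers that median was 35.5% and 70.0%. The median log2 fold change was 0.01 over the epithelial markers, 5 positive and 4 negative, and 0.54 over the 9 leukocyte markers tested, 7 positive and 2 negative. It was -0.40 over the endothelial and -1.22 over the erythroid markers, all 5 of the latter negative. Of these lists 0 genes lay at or below a mean of 10. The part of these cells in the mitochondrial values was not tested. The 9 mesenchymal markers, which define the labelled tissue, had a derived sum of 3829894 in Control and 3746825 in HhipCKO.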

How the data were processed

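QIAGEN RNeasy kits and sequencing at GENEWIZ are given per the labels' protocols. FastQC, STAR and DESeq on GRCm38 (mm10) are named without versions in the submitters' processing notes. The authors deposited 1 table with a mean normalized count signal, a log2 fold change and its SE, the Wald score, and raw and adjusted p-values for each gene, per the file headers. It has 0 columns of values per sample, so planned fits on counts were replaced by the authors' Wald tests. The Wald score equals fold change over SE to within 2.56e-07. Depth per library is unknown.

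Folds and 95% intervals were computed from the fold change and SE under a normal distribution. Group levels were derived from the mean and fold change for equal groups, and coefficients of variation from the SE under a negative binomial model. Annotation came from GENCODE M21 on GRCm38, which matched 31509 identifiers. Nuclear copies were sought with megablast (BLAST 2.17.0, e-value up to 1e-05). Alternatives were a recomputed filter, centring, a robust SD, removal of a lowess length trend (span 0.3, statsmodels 0.14.6) and a 1.5-fold minimum. They were run on simulated data (Python 3.11.15) that held no length trend and no spread beyond each gene's SE. That run therefore cannot check the trend removal or the scaling by the robust SD. Members and lists, 12 of functions and 6 of markers, were chosen with earlier results of these data known. Named genes were all messenger and ribosomal RNAs, every tested transfer RNA gene and the extremes of the rest, up to 4 called and 2 abundant genes per nuclear list, and abundant nuclear copies. Gm10222, Gm28439, Gm13341, Cep295, Actc1, Tnnt3, Lyz2, Sftpc, Mrpl17, Yy1, Ndufa4, Hccs and Arhgap6 fall outside that rule and were picked with values seen. One driver allele of the HhipCKO mice is not reported here.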

Additional observations from a re-analysis of the deposited data

How the results depend on the processing

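The count of mitochondrial genes past the threshold was 1 as deposited. It stayed at 1 without a filter on low means and under both centrings. It was 0 among genes with a mean of at least 500, but mt-Ty, with a mean of 412, was not tested there. The count was 0 with the Wald statistics divided by their robust SD, 0 against a minimum change of 1.5-fold, and 2 with the length trend removed. Under that removal mt-Nd4l joined mt-Ty, at -0.47 and an adjusted p of 0.0498 by the Wald test, which ran up to 1 over its alternatives. At transfer RNA length few genes were tested, 44 below 100 bases with 15 of them mitochondrial. mt-Ty was -0.50 after the removal, and its Wald test gave an adjusted p between 0.00816 and 1 over the alternatives that tested it. Of the values for single genes under these alternatives, 202 kept their side of the threshold, 1 gained it and 2 lost it. Uncalled values near 0 changed sign for 2 genes under each centring and for 9 with the trend removed, mt-Co1, mt-Co2 and mt-Co3 included. Over all genes, 1219 passed as deposited, 960 without a filter, 539 with the trend removed, 18 with the robust SD and 8 against 1.5-fold. Higher calls were 534 of 1219 as deposited and 460 of 1264 under median centring. The share of normalized counts was 1.73% for messenger RNAs alone. No paired analysis was possible because the table holds no values per library, and leaving out replicates and refits with edgeR or DESeq2 were not run for the same reason.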

Other observations

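Hccs, which encodes the enzyme that attaches heme to cytochrome c in mitochondria, rose in HhipCKO by the authors' deposited table, at 1.13 ± 0.13 (SE) on the log2 scale, and had the smallest adjusted p of all genes, 3.15e-15. This gene was singled out because of that rank. Its annotated span on chromosome X of GRCm38, from 169250193 to 169320372, overlaps that of Arhgap6, from 168795099 to 169304435. Arhgap6 had a log2 fold change by the authors' deposited table of 0.85 ± 0.09 (SE) and rose with an adjusted p of 4.46e-15. Reads in the overlap cannot be told apart without a known strand setting. Nor can effects of Hhip loss and of the Cre alleles, which Control mice lacked.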
